A study of Gallus gallus with 4 samples.

Results

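Transfer RNAs (tRNA) and small nuclear RNAs (snRNA) were counted as repeats in RNA-seq libraries of chick (Gallus gallus) cranial neural folds, the edges of the neural plate in the head that give rise to the cranial neural crest. Members were chosen by name alone: names beginning with tRNA-, names made of U and digits, and names beginning with 7S. Of 11336 repeat names, 64 met the rule, 54 of them tRNA names and 10 of them U names. No name began with 7S, and the minor spliceosomal RNAs U11 and U12 were not among the names. Names containing rRNA, and 5S, were left out.

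Embryos of about 18 h incubation at 37 °C, at Hamburger-Hamilton stage 4 (HH4), received a Cas9 construct together with guide constructs by electroporation. The knockout group, labelled Chiwi CRISPR knockout, carried guides against Chiwi, a chicken PIWI protein that binds piRNAs, on the right side. The group labelled CRISPR control carried control guides on the left side. Folds were dissected about 14 h later at HH9-, pooled over several embryos, and gave 2 libraries per group. Both groups carried Cas9, side and guide coincide in every library, and electroporated tissue also holds cells that took up no plasmid. No label says whether same-numbered libraries share embryos, nor that libraries of a group came from separate embryos, so p-values measure only the spread between these pools. The level of Chiwi was not analysed here, because 0 of the 24356 Ensembl IDs were paired with a symbol.

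Transfer RNAs carry amino acids to the ribosome and read codons by their anticodon. The spliceosomal RNAs U1, U2, U4, U5 and U6 build the particle that removes introns, and U7 takes part in trimming the 3′ ends of replication-dependent histone mRNAs. U3, U13, U14 and U17 are small nucleolar RNAs (snoRNA), which serve the processing and modification of ribosomal RNA. Transfer RNAs and U6 are made by RNA polymerase III, whereas U1, U2, U4 and U5 are made by RNA polymerase II. In vertebrates U14 and U17 are released from introns of host genes. These RNAs are housekeeping components, and many of them occur in several genomic copies.

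The libraries held 38783357 to 40352750 gene reads and 2707324 to 2942281 repeat reads. Levels are reads per 1000000 gene reads of the same library (CPM), with no correction for length, so levels of different names are not ranked against each other. The 64 names together took 4700 reads, 0.0415% of the repeat reads. Of the tRNA names, 5 had 0 reads in all libraries, for which a floor of 3 reads was taken as the limit, or 0.0774 CPM in the shallowest library, for counting error only. Reads were found for 59 names, in all 4 libraries for 31 of them, and 25 of the 59 had under 10 reads in total. How reads that map to many places were counted is not given in the sources used here, so reads of near-identical copies can be split or dropped.

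Summed tRNA levels were set apart by replicate number more than by guide. Knockout libraries 1 and 2 stood at 6.21 CPM (95% Poisson interval 5.45 to 7.05) and 9.44 CPM (8.51 to 10.5), and control libraries 1 and 2 at 6.29 CPM (5.54 to 7.12) and 8.16 CPM (7.30 to 9.09). These intervals cover counting error only. Both libraries numbered 2 were higher than both numbered 1, and the groups overlapped. Knockout libraries averaged 7.83 ± 2.28 CPM and control libraries 7.23 ± 1.32 CPM (SD, 2 libraries each), a ratio of 1.08. On the log2 scale this ratio was 0.12, and it was -0.22 without knockout library 2 and -0.06 without control library 1. Without tRNA-Ala-GCY, which held 24.96% of tRNA reads, library 2 exceeded library 1 by 1.60-fold in knockout and 1.19-fold in control tissue. The knockout to control ratio was then 1.13. The control intervals then overlapped, at 4.18 to 5.56 CPM and 5.04 to 6.55 CPM. In bulk tissue, fewer cells of a type and less RNA per cell cannot be told apart.

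The sum of the 5 spliceosomal names, too, was higher in both libraries numbered 2 than in both numbered 1. By single name, U1 and U6 had this order, whereas U2, U4 and U5 did not. The sum of all 5 was 8.48 CPM (interval 7.59 to 9.45) and 12.6 CPM (11.5 to 13.7) in knockout libraries 1 and 2. It was 7.93 CPM (7.08 to 8.85) and 10.8 CPM (9.83 to 11.9) in control libraries 1 and 2. Library 2 exceeded library 1 by 1.48-fold in knockout and 1.37-fold in control tissue, while the knockout to control ratio was 1.12. That ratio was 0.17 on the log2 scale, -0.14 without knockout library 2 and -0.04 without control library 1. Without U6, which held 57.4% of these reads, library 2 exceeded library 1 by 1.44-fold in knockout and 1.10-fold in control tissue. The knockout to control ratio was then 1.22. The control intervals then overlapped, at 3.08 to 4.28 CPM and 3.42 to 4.69 CPM.

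The sum of the 4 snoRNA names was also higher in both libraries numbered 2 than in both numbered 1, but the control libraries were close. The 4 names summed to 7.92 CPM (interval 7.05 to 8.85) and 12.7 CPM (11.6 to 13.8) in knockout tissue. In control tissue they summed to 10.4 CPM (9.46 to 11.5) and 10.97 CPM (9.97 to 12.05). The knockout libraries differed by 1.60-fold and lay on either side of the control libraries, which differed by 1.05-fold. The knockout to control ratio was 0.962, a log2 ratio of -0.06, which was -0.44 without knockout library 2 and 0.24 without knockout library 1. Without U17, which held 50.5% of snoRNA reads, the levels were 3.66 and 5.97 CPM in knockout and 5.06 and 6.09 CPM in control tissue. Knockout library 2 then lay between the controls, and the knockout to control ratio was 0.864. By single name, U3 had both libraries numbered 2 above both numbered 1, whereas U13, U14 and U17 did not.

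**Figure D1:**
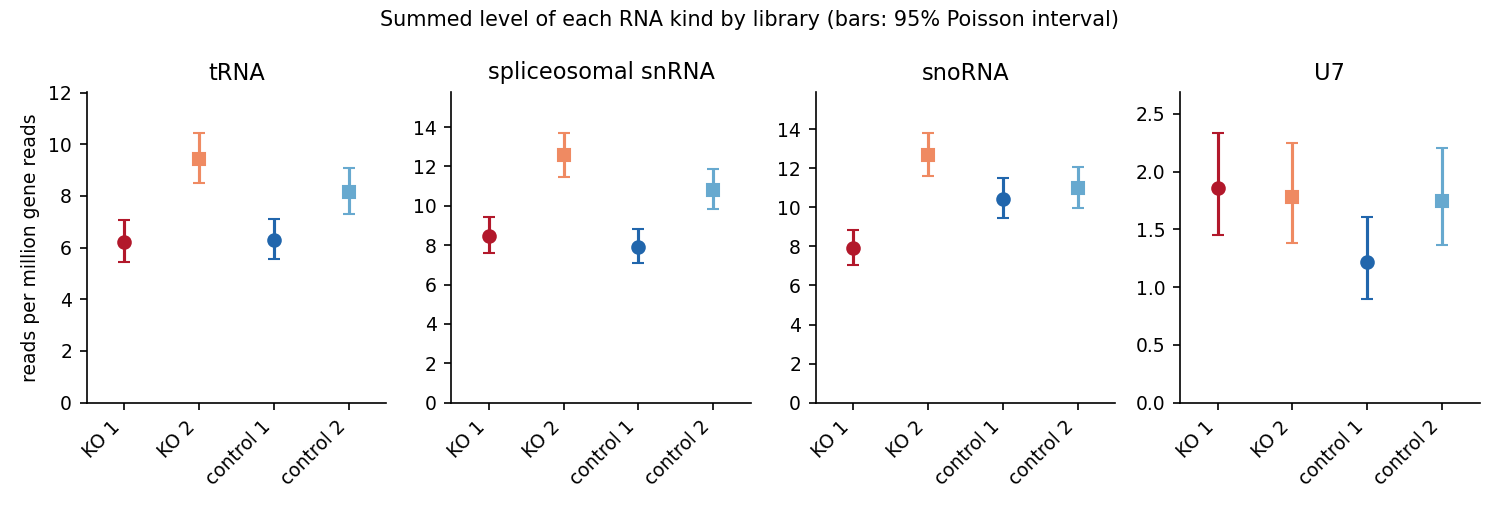
Summed level of each RNA kind in each library, in CPM on axes starting at 0, with 95% Poisson intervals of the count as bars (circles: library 1, squares: library 2). For tRNA, spliceosomal snRNA and snoRNA both squares lie above both circles. For snoRNA the 2 knockout libraries also lie on either side of the controls.

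Ribosomal RNA, counted in the same tables, did not follow the replicate number in that way. Its 3 names summed to 8427 and 8554 CPM with Chiwi guides and to 6698 and 7558 CPM with control guides, so the groups did not overlap. 5S, the ribosomal RNA made by RNA polymerase III, stood at 2.32 and 2.08 CPM against 1.69 and 2.29 CPM in the same order. In edgeR, with adjusted p = 0.9997 for each, LSU-rRNA_Hsa had a log2 fold change of 0.26 (SE 0.11), SSU-rRNA_Hsa of 0.23 (SE 0.11) and 5S of 0.15 (SE 0.25). Unadjusted edgeR p-values were 0.0250, 0.0429 and 0.564 in that order, and 1.39% of all repeats tested were under 0.05. The part of ribosomal RNA in the values of tRNA and snRNA was not tested.

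The filter on low counts asked for at least 0.252 CPM in 2 libraries and at least 15 reads in total. Of the 64 names, 18 passed it, 10 of them tRNA and 8 of them U names, with 39 to 905 reads each over the 4 libraries. They were fitted together with all other repeats, 2803 names in all. Of these 18, 0 passed edgeR's quasi-likelihood test with Benjamini-Hochberg adjustment (adjusted p = 0.9997 for each), beside 0% of all repeats. At an unadjusted p under 0.05 the count was also 0, beside 1.39% of all repeats, and DESeq2 called 0 at either level. The median log2 fold change was 0.08 over the 18 names and -0.004 over all repeats tested. Half-widths of the 95% intervals ran from 0.40 to 1.29 on the log2 scale, with a median of 0.88 against 0.51 over all repeats. A change within those widths was not detectable with these libraries. The intervals are not adjusted, so after adjustment over 2803 names a larger change could also go uncalled.

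**Figure D2:**
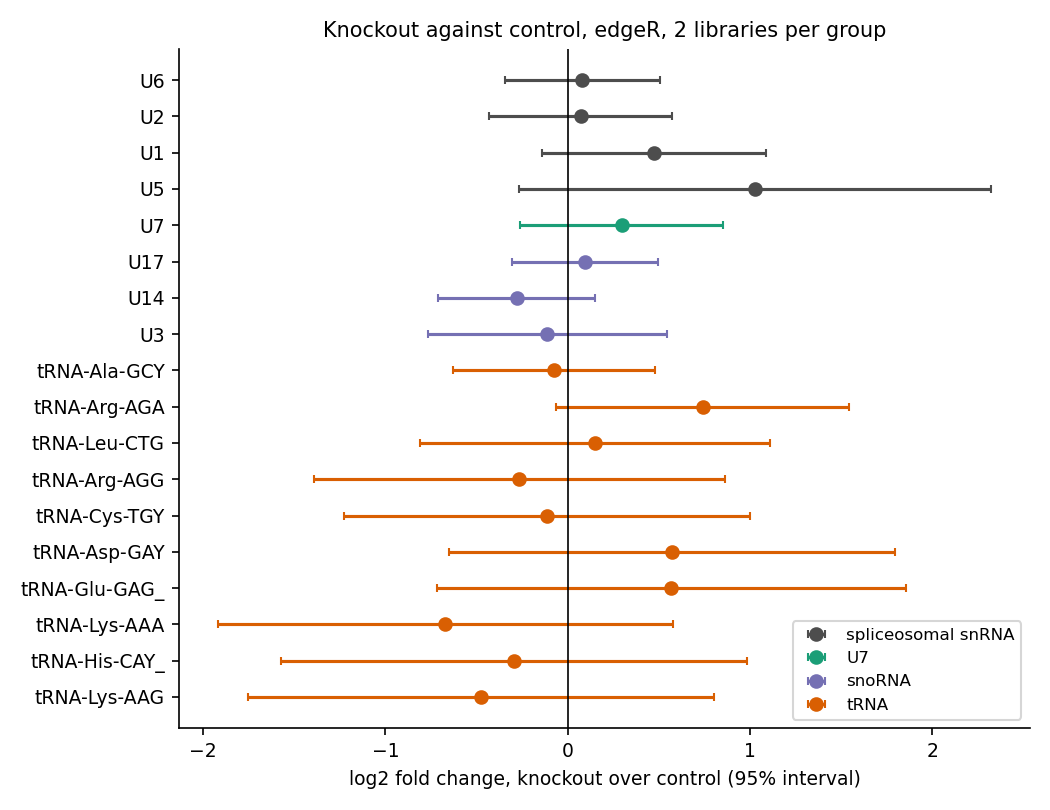
Log2 fold change of the 18 tested names, knockout over control, with 95% intervals from edgeR (2 libraries per group), coloured by RNA kind. Every interval includes 0, and the widest, for U5, has a half-width of 1.29.

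U1, which pairs with the 5′ splice site, stood at 1.37 and 1.98 CPM in knockout libraries 1 and 2 and at 0.917 and 1.497 CPM in control libraries 1 and 2. Each knockout library was above the control library of its number, but knockout library 1 lay below control library 2, so the groups overlapped. Its log2 fold change was 0.47 (SE 0.30, interval -0.14 to 1.09). It was 0.71 and 0.18 without knockout library 1 and 2, and 0.16 and 0.87 without control library 1 and 2. U2, which pairs with the branch point, stood at 1.91 and 2.95 CPM against 2.40 and 2.22 CPM. The knockout libraries lay on either side of the controls, with a log2 fold change of 0.07 (SE 0.25), which was -0.28 without knockout library 2. U6, part of the catalytic centre of the spliceosome, stood at 4.67 and 7.06 CPM against 4.29 and 6.81 CPM. Libraries with the same number were close, and number 2 exceeded number 1 by 1.51-fold in knockout and 1.59-fold in control tissue. Its log2 fold change between groups was 0.08 (SE 0.21), and -0.25 without knockout library 2 and -0.22 without control library 1.

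U5, which holds the exons in place during splicing, had 14 and 12 reads in knockout and 5 and 8 reads in control tissue, or 0.361 and 0.305 CPM against 0.124 and 0.1995 CPM. The groups did not overlap, and the log2 fold change was 1.03 (SE 0.63, interval -0.27 to 2.32). U5 reached the filter level of 0.252 CPM in the knockout libraries alone, so its presence among the tested names depended on being higher there. U4, which pairs with U6 before the spliceosome is activated, had 7 and 11 reads in knockout and 8 and 4 reads in control tissue and was not tested.

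U7 stood at 1.86 and 1.78 CPM in knockout and at 1.21 and 1.75 CPM in control tissue. The groups did not overlap, by a margin of 1.78 against 1.75 CPM between libraries numbered 2. Both of these held 70 reads, so the order came from depth. Scaled to repeat reads instead, U7 took 0.00238% in knockout library 2 and 0.00246% in control library 2, and the groups overlapped. Its log2 fold change was 0.30 (SE 0.27, interval -0.26 to 0.85), 0.58 without control library 2 and 0.06 without control library 1.

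U14, a snoRNA needed for the maturation of the small ribosomal subunit's RNA, stood at 2.63 and 3.43 CPM in knockout and at 3.62 and 3.74 CPM in control tissue. It was the one tested name whose knockout libraries both lay below both controls. The log2 fold change was -0.28 (SE 0.21, interval -0.71 to 0.15), and it was -0.10 without knockout library 1 and -0.48 without knockout library 2. U17 stood at 4.25 and 6.70 CPM against 5.38 and 4.89 CPM. Here knockout library 1 was the lowest and knockout library 2 the highest, with a log2 fold change of 0.09 (SE 0.20), and of -0.27 without knockout library 2.

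U3, a snoRNA that acts in the first cleavages of the ribosomal RNA precursor, showed the widest gap between libraries of a group among the tested U names. Its level was 0.954 and 2.54 CPM in knockout and 1.44 and 2.34 CPM in control tissue. Number 2 exceeded number 1 by 2.66-fold in knockout and 1.63-fold in control tissue. Between groups the log2 fold change was -0.11 (SE 0.32), and it turned to 0.42 without knockout library 1 and 0.28 without control library 2. U13 had 3 reads in knockout library 1 and 0 in the others.

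Because U14 and U17 lie in introns, the repeat counts cannot tell the mature snoRNA from host transcripts that still hold the intron. For the other names, too, counts per name carry no position. Mature RNA of those names therefore cannot be told from other transcripts that hold a copy. The labels give total RNA and standard library preparation, and name no selection of small RNA.

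**Figure D3:**
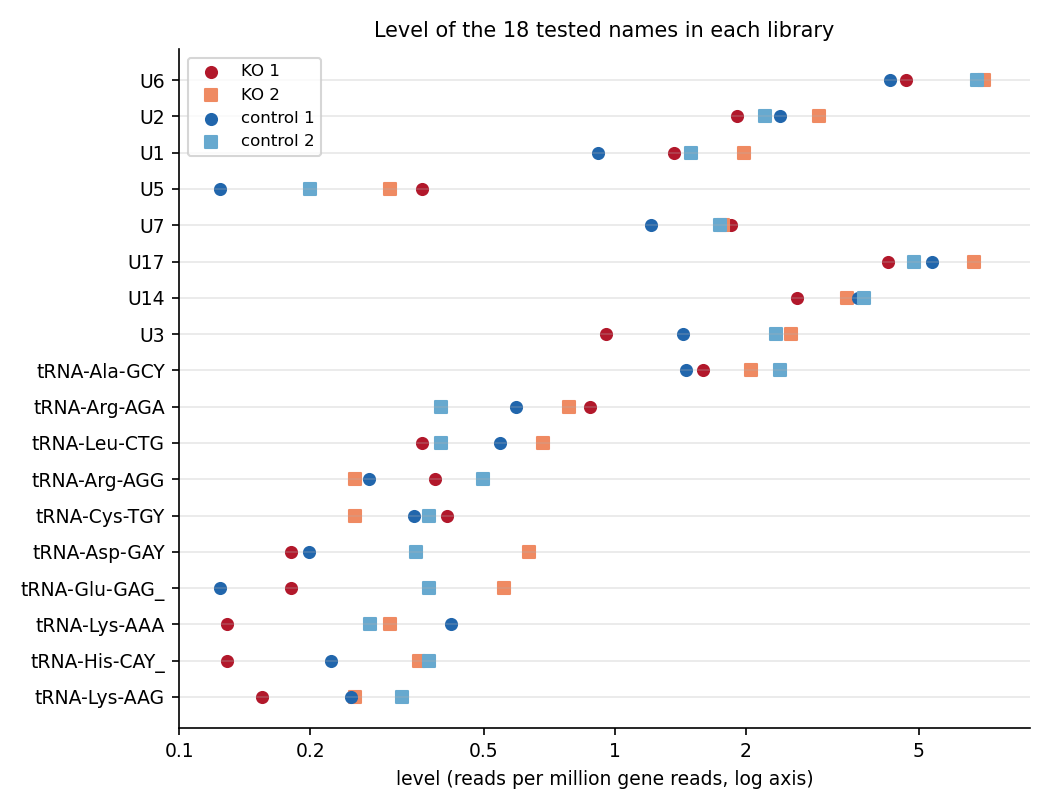
Level of the 18 tested names in each library, in CPM on a log axis, ordered by RNA kind and then by mean level (circles: library 1, squares: library 2; red: knockout, blue: control). U6, U3 and tRNA-Ala-GCY have both squares to the right of both circles, and tRNA-Arg-AGA and U5 have both red marks to the right of both blue marks.

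The tRNA names give an amino acid and mostly a triplet. In all 50 names with a triplet and a standard amino acid, the triplet read as a codon encodes that amino acid, so the triplet is the codon and not the anticodon, with Y standing for C or T. RefSeq (assembly GRCg7b) lists a tRNA gene with the reverse-complementary anticodon, and the same amino acid, for 49 of them. The exception was tRNA-Ile-ATC. Names cover 21 amino acids, selenocysteine included. Names with a trailing mark (tRNA-Glu-GAG_, tRNA-His-CAY_) are kept as the tables write them. Reads can be split between pairs such as tRNA-Ala-GCY and tRNA-Ala-GCY_, of which the second had 0 reads.

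The 10 tested tRNA names, which the filter kept for their counts, held 68.9% of tRNA reads. tRNA-Ala-GCY alone held 24.96%, or 298 of 1194 reads. By amino acid, the 4 alanine names held 25.5%, the 6 arginine names 15.7% and the 6 leucine names 10.8%. These shares are not corrected for the number of names.

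tRNA-Ala-GCY, an alanine tRNA, stood at 1.60 and 2.06 CPM in knockout libraries 1 and 2 and at 1.46 and 2.39 CPM in control libraries 1 and 2. Both libraries numbered 2 were the higher ones, and the groups overlapped. Its log2 fold change was -0.08 (SE 0.27), with 0.09 without knockout library 1 and 0.32 without control library 2. tRNA-Leu-CTG, a leucine tRNA, stood at 0.361 and 0.686 CPM against 0.545 and 0.399 CPM. The knockout libraries held both its lowest and its highest level, with a log2 fold change of 0.15 (SE 0.47), which was -0.38 without knockout library 2 and -0.06 without control library 2.

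tRNA-Arg-AGA, an arginine tRNA, had 34 and 31 reads in knockout and 24 and 16 reads in control tissue, or 0.877 and 0.787 CPM against 0.595 and 0.399 CPM. It was the one tested tRNA name whose groups did not overlap. Its log2 fold change of 0.74 (SE 0.39, interval -0.07 to 1.54) had the smallest unadjusted p of the 18 names in edgeR, 0.0703, and an adjusted p of 0.9997. The other tested arginine name, tRNA-Arg-AGG, stood at 0.387 and 0.254 CPM against 0.273 and 0.499 CPM. Its groups overlapped, and its log2 fold change was -0.27 (SE 0.55), with 0.005 without knockout library 2 and 0.23 without control library 2. The 6 arginine names together stood at 1.34 and 1.35 CPM in knockout and at 0.991 and 1.05 CPM in control tissue, without overlap. tRNA-Arg-AGA held 105 of the 187 arginine reads, so this sum is not separate from that name.

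Both lysine names had a negative log2 fold change. tRNA-Lys-AAA had 5 and 12 reads in knockout and 17 and 11 in control tissue, and its log2 fold change was -0.67 (SE 0.61), with a range of -1.41 (without knockout library 2) to -0.19 (without knockout library 1). tRNA-Lys-AAG had 6 and 10 reads against 10 and 13, a log2 fold change of -0.48 (SE 0.63), with -0.87 and -0.17 without the same libraries. Each name overlapped between groups, but their sum did not, at 0.284 and 0.559 CPM in knockout and 0.669 and 0.599 CPM in control tissue. Lysine was the one amino acid of the 21 whose knockout libraries both lay below both controls. For arginine, asparagine, serine and threonine they both lay above, the last 3 on 17 to 31 reads in total. Of all single repeat names with a read, 10.5% lay below in this way and 14.2% above. For serine the order came from depth, with 8 reads each in knockout library 1 and control library 2. Grouped by the third base of the codon, or by G and C in its first 2 bases, the sums overlapped between groups in every class. No test was made of these sums.

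tRNA-Asp-GAY, an aspartate tRNA, had 7 and 25 reads in knockout and 8 and 14 in control tissue. tRNA-Glu-GAG_, a glutamate tRNA, had 7 and 22 reads against 5 and 15, and tRNA-His-CAY_, a histidine tRNA, 5 and 14 reads against 9 and 15. In each of these names library 2 held more than library 1 in both groups. These names reached the filter level in the libraries numbered 2 alone, so they had to be higher there. Their log2 fold changes between groups were 0.57 (SE 0.60), 0.57 (SE 0.63) and -0.29 (SE 0.62). Without knockout library 2 the values for tRNA-Asp-GAY and tRNA-Glu-GAG_ were -0.59 and -0.46, and that for tRNA-Glu-GAG_ was -0.01 without control library 1. For tRNA-His-CAY_ it was 0.25 without knockout library 1 and 0.12 without control library 2. tRNA-Cys-TGY, a cysteine tRNA, had 16 and 10 reads against 14 and 15, with library 1 the higher one in knockout tissue. Its log2 fold change was -0.11 (SE 0.54), and 0.19 without knockout library 2.

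**Figure D4:**
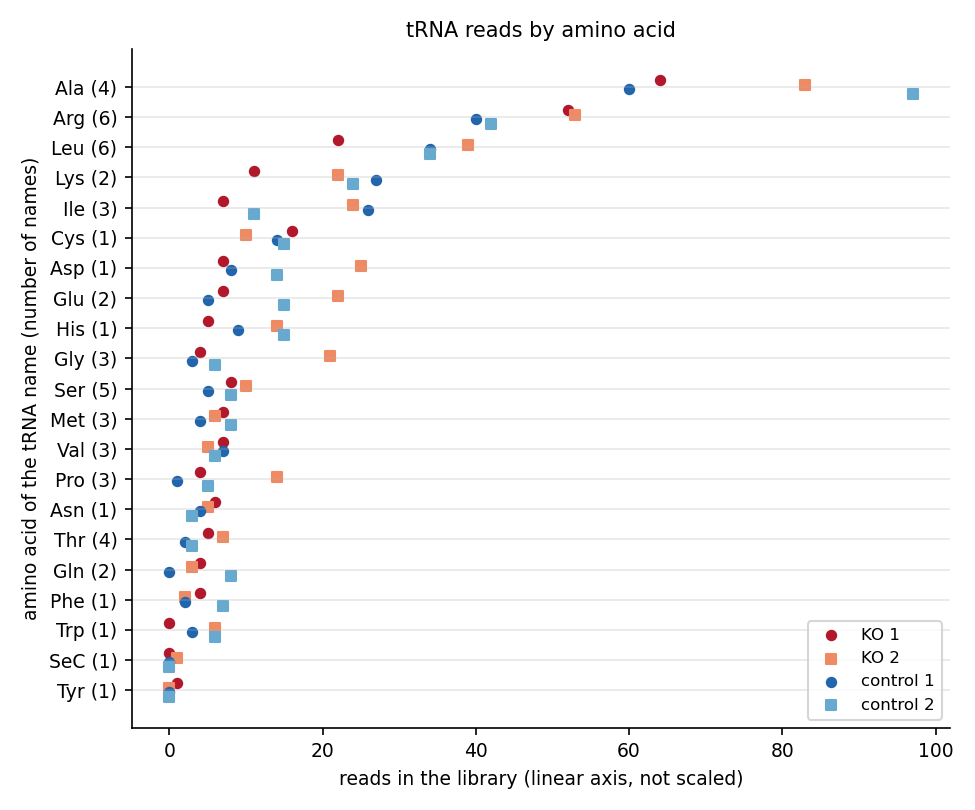
Reads per library for the tRNA names of each amino acid, on a linear axis and not scaled to depth, with the number of names in brackets (circles: library 1, squares: library 2; red: knockout, blue: control). Alanine and arginine names hold the most reads, and lysine has both red marks to the left of both blue marks.

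A further 41 names had reads but were not tested, with 1 to 30 reads each over the 4 libraries and at most 13 in any one. They summed to 80 and 141 reads in knockout and 83 and 100 reads in control tissue. Glycine tRNA-Gly-GGA had 0 and 10 reads in knockout and 0 and 2 in control tissue. Proline tRNA-Pro-CCY had 3 and 6 reads against 0 and 0. Both names were chosen after their values were seen. The initiator tRNA-Met-i, which starts translation, had 5 and 3 reads in knockout and 3 and 8 in control tissue. Selenocysteine tRNA-SeC(e)-TGA had 1 read in total. Among tRNA names, 34 and 42 had a read in knockout libraries 1 and 2, and 34 and 37 in control libraries 1 and 2. Of the 49 tRNA names with a read, 24 had under 10 in total. The number of names with a read thus depends on the read totals and is not a separate observation. No such count per library was made over all repeat names.

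Over the 59 names with a read, 13 had both knockout libraries above both controls, or 22.0%, and 2 had them below, or 3.39%. Over all repeat names with a read the shares were 14.2% and 10.5%. Of the 13 names, 10 were untested ones, where a few reads decide the order. Among the 18 tested names 3 lay higher (U5, U7 and tRNA-Arg-AGA), or 16.7%, beside 12.9% of all tested repeats. One name lay lower (U14), or 5.56%, beside 12.8%. U5 reached the filter level in the knockout libraries alone, so it had to be higher there, which leaves U7 and tRNA-Arg-AGA. The share of 12.9% was not corrected in that way. U7 had 70 reads in each library numbered 2, so its order came from depth.

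By replicate number, 8 of the 18 tested names had both libraries numbered 2 above both numbered 1, beside 19.7% of all tested repeats, and 0 had them below, beside 20.1%. The 8 were U1, U3, U6, tRNA-Ala-GCY, tRNA-Asp-GAY, tRNA-Glu-GAG_, tRNA-His-CAY_ and tRNA-Lys-AAG. The last 4 reached the filter level in the libraries numbered 2 alone, so they had to be higher there. Among the other 14 tested names the count was 4. The share of 19.7% over all tested repeats was not corrected in that way, so it is not a like background for this count. Over the 59 names with a read, 14 lay higher and 1 lower, or 23.7% and 1.69%, beside 16.4% and 14.6% of all repeat names with a read. Scaled to repeat reads instead, tRNA names took 0.00890% and 0.0126% in knockout libraries 1 and 2 and 0.00896% and 0.0115% in control libraries 1 and 2, which is the same order. No test was made by number, since the labels do not say what it marks.

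**Figure D5:**
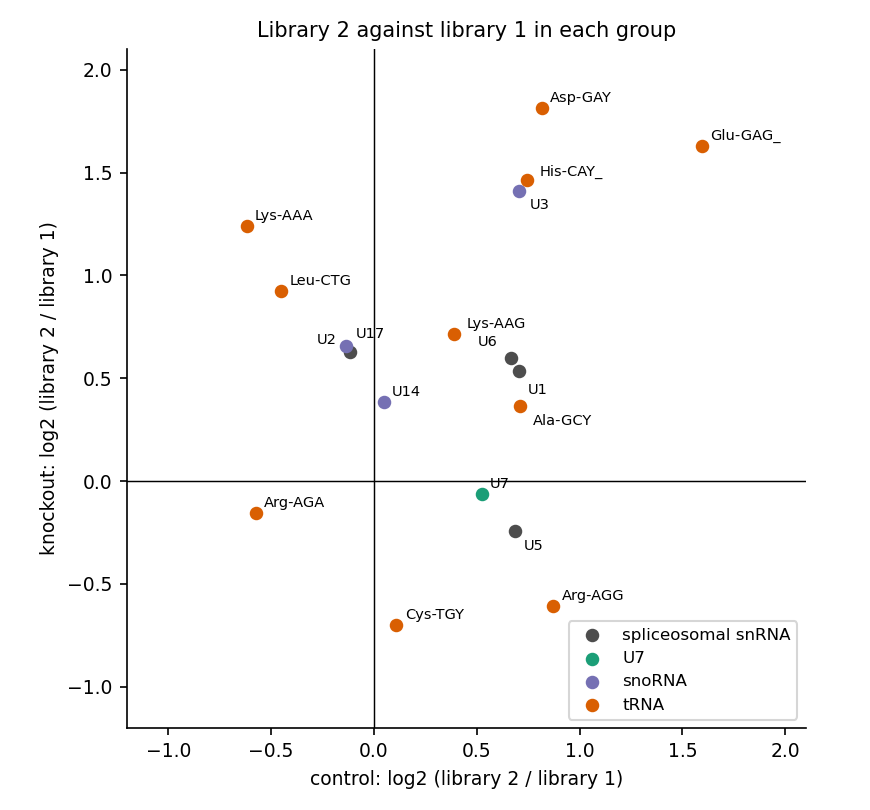
Log2 ratio of library 2 over library 1 for the 18 tested names, in control tissue (horizontal) and knockout tissue (vertical), coloured by RNA kind, with tRNA names shortened to amino acid and codon. Names in the upper right quadrant were higher in library 2 of both groups, and tRNA-Arg-AGA alone lies in the lower left. In the upper right, tRNA-Asp-GAY, tRNA-Glu-GAG_, tRNA-His-CAY_ and tRNA-Lys-AAG reached the filter level in the libraries numbered 2 alone, so they had to lie there.

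Spread beyond counting error was compared within groups and within numbers. Over members with at least 10 reads in a pair, the chi-square per name was 5.18 between the knockout libraries (27 names) and 3.24 between the controls (23 names), where counting error alone gives about 1. Between knockout and control it was 2.21 for number 1 (24 names) and 2.03 for number 2 (30 names). The medians over names were 2.48 and 1.54 within the knockout and control groups and 0.919 and 1.24 within numbers 1 and 2. The value of about 1 is for the mean, and counting error alone gives a lower median. The 3 snoRNA names with enough reads did not share the order, with means of 17.8 and 3.26 within groups and 5.06 and 4.05 within numbers. The 5 spliceosomal names had it in their means, at 6.62 and 6.20 within groups and 2.21 and 2.23 within numbers. Their medians did not have it, at 4.39 and 1.31 within groups and 2.25 and 2.68 within numbers. For all repeat names the means were 9.61 and 10.7 within groups and 6.79 and 4.45 within numbers, and the medians 1.29, 1.35, 1.14 and 0.944.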

How the data were processed

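The authors deposited, per library, raw read counts for each Ensembl gene ID and each repeat name. Bowtie2, featureCounts, DESeq2 and the galGal6 build are named, per the submitters' processing notes. For versions, strand and multi-mapping the settings were not given in the sources used here. Repeat counts were scaled by the summed gene reads of the library, with no further factor. They were tested in edgeR 4.0.16 (R 4.3.3; glmQLFit, glmQLFTest, group as the only term) over all repeats kept by filterByExpr (minimum count 10, minimum total 15), with Benjamini-Hochberg adjustment and a threshold of 0.05. SE is the log2 fold change over the square root of F. The fit borrows spread across names (prior degrees of freedom 27.4), so an interval rests largely on other names. Sums over names have no test. Named were all U and tRNA members that passed the filter, since the tRNA ones numbered 12 or fewer. Other names are marked as chosen later or given as counts. Members, lists and tests were chosen with earlier results of these data known. Alternatives were TMM and median-of-ratios factors of the gene table, repeat-table totals, DESeq2 1.42.0, no filter, a replicate block and leaving out each library. The names tested were kept fixed, except that the fit with no filter took all 6562 names with a read, 59 of them members. Names called not tested are those left out of the main fit.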

Additional observations from a re-analysis of the deposited data

How the results depend on the processing

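The count of 0 called members was kept under all 10 alternatives. Signs of the 18 log2 fold changes were all kept under the 6 alternatives other than leaving out a library, and 11 turned when 1 library was left out. These fits have a lone library in one arm, assumed to vary like the others. Leave-one-out ranges were -0.27 to 0.38 for U17, -0.98 to 0.42 for U3, -0.25 to 0.45 for U6, -0.28 to 0.35 for U2, -0.39 to 0.32 for tRNA-Ala-GCY, -0.38 to 0.53 for tRNA-Leu-CTG, -0.64 to 0.23 for tRNA-Arg-AGG, -0.50 to 0.19 for tRNA-Cys-TGY, -0.59 to 1.20 for tRNA-Asp-GAY, -0.46 to 1.56 for tRNA-Glu-GAG_ and -1.19 to 0.25 for tRNA-His-CAY_. Those that kept their sign ranged from 0.16 to 0.87 for U1, 0.73 to 1.40 for U5, 0.057 to 0.58 for U7, -0.48 to -0.10 for U14, 0.48 to 1.05 for tRNA-Arg-AGA, -1.41 to -0.19 for tRNA-Lys-AAA and -0.87 to -0.17 for tRNA-Lys-AAG. For the summed levels the log2 ratio ranged from -0.22 to 0.39 for tRNA, -0.14 to 0.42 for spliceosomal snRNA, 0.057 to 0.58 for U7 and -0.44 to 0.24 for snoRNA. The cause was not tested. With a replicate block, 0 members were called and the log2 ratios changed no sign. The correlation of library 2 minus library 1 between groups was 0.167 over 2803 repeats, which with 2 libraries per group leaves undecided whether the number pairs libraries. The filter on low counts left 46 of the 64 names untested. For names with many reads, such as U6, the spread between libraries exceeded counting error.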

Other observations

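Y RNAs, small RNAs bound by the Ro protein, were listed for comparison and are not among the 64 names. HY1 had 6 and 6 reads in the knockout libraries and 1 and 1 in the control libraries, and HY3 had 3 and 0 against 1 and 0. Both names were under the filter on low counts and were not tested.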
